A study of Mustela putorius furo and Mus musculus with 4 samples.

Results

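The antigen presentation genes described here are 10 genes that load peptides onto major histocompatibility complex (MHC) molecules or switch those molecules on. They were taken by symbol from the ferret and mouse expression values: B2m, Tap1, Tap2, Tapbp, Tapbpl, Calr, Erap1, Nlrc5, Ciita and Cd74. All 10 had a mouse value and 9 had a ferret value, out of 13373 gene symbols shared by the species. A ferret value of Tap2 was not analysed here. RNA-seq was done on cultured cortical astrocytes, with 2 libraries from sable ferrets at postnatal day 1 and 2 libraries from wild-type ICR mice at postnatal day 1 to 3. Neither group carried a transgene or received a treatment. In both, mixed glia were grown for 14 days with 10% fetal bovine serum, shaken, replated and kept without serum before harvest, in a medium with heparin-binding EGF-like growth factor. Glia of a single ferret pup filled several flasks whereas several mouse pups were pooled in each flask, and it is not stated whether the duplicate libraries came from separate cultures. The p-values therefore measure the spread between these libraries, which may be technical, and species, genome annotation and culture cannot be told apart.

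MHC class I molecules show peptides from inside the cell to cytotoxic T cells, and class II molecules show peptides taken up from outside to helper T cells. For class I, the proteasome cuts proteins, the TAP transporter carries the peptides into the endoplasmic reticulum, and ERAP1 trims them. Tapasin and calreticulin hold the heavy chain with its light chain, beta-2 microglobulin, until a peptide binds. For class II, the invariant chain CD74 fills the groove until endosomal cathepsins remove it. NLRC5 and CIITA are the transactivators of class I and class II genes. Resting astrocytes are known for low MHC expression that interferon-gamma raises, and microglia are the usual class II-positive cells of the brain.

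Levels are given in FPKM, the fragments of a gene divided by its exon length and by the mapped fragments of the library, and differences as log2(FPKM + 1) in ferret minus mouse astrocytes. FPKM does not give the depth of a library. Genes with a mean of at least 1 FPKM in at least one species were tested with limma, and called when the Benjamini-Hochberg adjusted p was under 0.05 and the absolute log2 difference above 1. Summed over the shared symbols, the ferret libraries held 227391 and 236543 FPKM and those of the mouse 300465 and 308121 FPKM. The median log2 difference of all 10204 genes tested was -0.35 with FPKM as deposited, -0.01 with equal library sums, and 0.05 after quantile normalization. A gene with no change relative to the median gene therefore stood at about -0.35 on this scale. With 2 libraries a species, the smallest p of an exact permutation test on a single gene is 0.333. Of 10 astrocyte markers tested, 6 were called lower and 1 higher in ferret astrocytes, and 3 were not called. These counts are a description, because Slc1a2, among the 6 lower markers, passed the filter only through its mouse values. Among all genes tested, 30.1% were called lower and 13.1% higher. After either rescaling 4 markers were lower and 2 higher, when 24.9% or 21.7% of all genes were lower and 21.5% or 19.1% higher. After quantile normalization 3 markers were lower and 2 higher, when 20.4% of all genes were lower and 20.4% higher. Gfap, which encodes the astrocyte intermediate filament, stood between 1429 and 1546 FPKM in all 4 libraries. Slc1a2, a glutamate transporter gene, was near 0 in ferret libraries (0.133 and 0.178 FPKM) and at 47.1 and 51.8 FPKM in mouse libraries. S100b, which encodes a calcium-binding protein, went the other way, with 247 and 244 FPKM in ferret and 57.3 and 63.1 FPKM in mouse libraries, a log2 difference of 2.01. Aldoc, a glycolytic enzyme gene, was at 0.78 and not called, but was called higher at 1.17 after either rescaling and at 1.38 after quantile normalization.

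Of the 10 genes, 8 passed the filter on low values. B2m, Tap1, Erap1 and Cd74 were called lower and Tapbpl was called higher in ferret astrocytes, while Tapbp, Calr and Nlrc5 were not called. Among all genes tested, 30.1% were called lower and 13.1% higher. By the adjusted p alone all 8 differed, 6 lower and 2 higher, but so did 88.6% of all genes tested, with 56.2% lower and 32.4% higher. With 8 genes, 4 lower and 1 higher, the counts are given as a description, because Cd74 and Nlrc5 passed the filter only through their mouse values. The count of lower genes also rested on the scaling. It was 2 once the libraries were brought to their mean sum, when 21.7% of all genes were lower and 19.1% higher, and 1 after quantile normalization, when 20.4% were lower and 20.4% higher. The gene that remained called lower under every scaling was B2m.

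**Figure D1:**
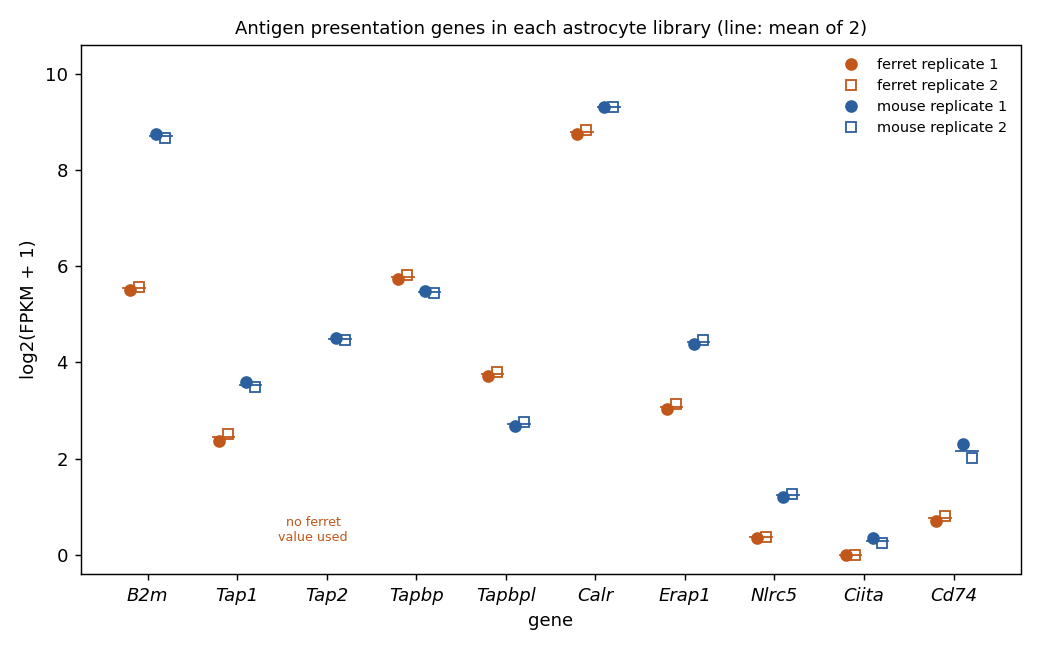
Level of each antigen presentation gene in the 4 libraries, as log2(FPKM + 1) on the y axis, with ferret libraries in orange, mouse libraries in blue, replicate 1 as filled circles, replicate 2 as open squares and the mean of the duplicates as a line. B2m stands far lower in ferret astrocytes, Tapbp and Tapbpl stand higher, and Ciita is listed at 0 in both ferret libraries.

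B2m, which encodes the light chain that every class I molecule needs to reach the cell surface, differed most. Its level was 44.4 and 46.5 FPKM in ferret and 426 and 402 FPKM in mouse libraries. The groups were far apart, and the duplicates within each species lay close together. The mean was 9.11 times lower in ferret astrocytes (45.5 ± 1.43 against 414 ± 17.2 FPKM, SD, n = 2 each), a log2 difference of -3.16 (standard error 0.060, limma adjusted p = 6.41e-11). Under the other scalings and the smaller pseudocount it stayed between -2.77 and -3.18. B2m ranked above 99.5% of the shared symbols in both mouse libraries, and above 92.1% and 92.3% in the ferret libraries. Mouse B2m occupies bases 122147686 to 122153083 of chromosome 2 (GRCm38, plus strand).

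The transporter gene Tap1 encodes one subunit of the peptide pump. It was at 4.15 and 4.74 FPKM in ferret and at 11.0 and 10.2 FPKM in mouse libraries, so that the mouse libraries were the higher pair with no overlap. The log2 difference was -1.09 (standard error 0.082, limma adjusted p = 6.30e-07). Tap1 lost the call on size under every rescaling, with log2 differences of -0.83, -0.76 and -0.68, although all 3 kept an adjusted p of at most 1.22e-04 by limma. Tap2, the gene of the other subunit, had 21.9 and 21.0 FPKM in mouse libraries, which was 1.99 and 2.06 times the FPKM of Tap1 in the same libraries. In the mouse genome, Tap1 (34187553 to 34197225), Tap2 (34203527 to 34216321) and Tapbp (33915899 to 33929292) are all plus-strand genes of chromosome 17. The immunoproteasome gene Psmb9 overlaps the start of mouse Tap1 by 212 bases on the opposite strand. Strand was kept in the library kit, and whether the quantification used it is not given in the sources used here, so reads of that stretch may count for either gene.

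Tapbp encodes tapasin, which bridges TAP and the empty class I molecule. It had 52.1 and 55.4 FPKM in ferret and 43.8 and 42.3 FPKM in mouse libraries. Both ferret values were above both mouse values, in the opposite order to B2m and Tap1. The log2 difference was 0.31 (standard error 0.060, limma adjusted p = 7.24e-04), under the size required for a call. It was between 0.66 and 0.71 after rescaling or quantile normalization, and positive in every setting tried.

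Tapbpl encodes the tapasin-like peptide editor TAPBPR. It stood at 12.1 and 12.9 FPKM in ferret and at 5.41 and 5.79 FPKM in mouse libraries, with the ferret pair well above. The mean was 2.23 times higher in ferret astrocytes, a log2 difference of 1.03 (standard error 0.073, limma adjusted p = 3.90e-07). This lay at the limit of 1. The call was lost at 0.99 when ferret replicate 2 or mouse replicate 1 was left out, and the difference was 1.38 to 1.50 after rescaling or quantile normalization. Mouse Tapbpl occupies bases 125223933 to 125231860 of chromosome 6 (minus strand), outside the MHC region. The related genes Tapbp and Tapbpl were thus both higher in ferret astrocytes, the former by less than the size required for a call.

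Calr encodes calreticulin, a general chaperone of the endoplasmic reticulum and the most abundant of the 10 genes in each library. It had 429 and 452 FPKM in ferret and 629 and 635 FPKM in mouse libraries. The ferret libraries were the lower pair, by a log2 difference of -0.52 (standard error 0.061, limma adjusted p = 2.05e-05), without a call. After either rescaling the difference was -0.13. The mouse values also include a processed copy, Calr-ps, at 4.52 and 4.50 FPKM, and reads could be split between it and Calr. Mouse Calr occupies bases 84841850 to 84846934 of chromosome 8 (minus strand).

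Erap1, which encodes the aminopeptidase that trims peptides for class I, was lower in ferret astrocytes. Its level was 7.16 and 7.78 FPKM in ferret and 19.8 and 21.2 FPKM in mouse libraries. The groups did not overlap, and the log2 difference was -1.35 (standard error 0.072, limma adjusted p = 4.99e-08). It fell just short of the size for a call at -0.99 with library sums made equal to their mean and at -0.93 after quantile normalization. Mouse Erap1 occupies bases 74639568 to 74693201 of chromosome 13 (plus strand).

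Both transactivator genes were low in each species. Nlrc5, the class I transactivator, had 0.278 and 0.304 FPKM in ferret and 1.31 and 1.42 FPKM in mouse libraries. The mouse values were the higher pair, and the log2 difference was -0.87 (standard error 0.077, limma adjusted p = 2.20e-06), without a call. At values this low the pseudocount sets the size, and with 0.1 in place of 1 the difference was -1.90 and was called. Ciita, the class II transactivator, is listed at 0 in both ferret libraries and had 0.280 and 0.183 FPKM in mouse libraries. It did not pass the filter on low values, and no fold is given against values listed at 0. In the mouse, Nlrc5 occupies bases 94434356 to 94527272 of chromosome 8 and Ciita bases 10480059 to 10528418 of chromosome 16 (plus strand for both).

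Cd74 encodes the invariant chain of class II. It had 0.637 and 0.754 FPKM in ferret and 3.91 and 3.06 FPKM in mouse libraries, and the mouse duplicates were the widest apart of the 8 genes tested, relative to their mean. The mean was 5.01 times lower in ferret astrocytes, a log2 difference of -1.40 (standard error 0.101, limma adjusted p = 5.03e-07). After quantile normalization it stood at the limit, at -1.00, and was not called. In bulk RNA, fewer cells of a type and less RNA per cell cannot be told apart. Markers of microglia and macrophages were lower in ferret astrocytes. All 15 of the 15 markers tested were called lower, beside 30.1% of all genes tested. Most of these markers passed the filter only through their mouse values, so the count is a description. Their summed level ranged from 10.9 to 12.5 FPKM in ferret and from 823 to 832 FPKM in mouse libraries, and the microglial receptor gene Cx3cr1 is listed at 0 in both ferret libraries. The part of these cells in the differences of the antigen presentation genes was not tested. Of the dendritic and B cell markers, 1 of 8 passed the filter on low values, and the summed level of the list was 2.2 to 2.6 FPKM in ferret and 1.30 to 1.37 FPKM in mouse libraries.

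Most markers of further cell types were lower too. Those of meningeal fibroblasts summed to 110 to 124 FPKM in ferret and 788 to 830 FPKM in mouse libraries. Of 6 tested, 5 were called lower in ferret astrocytes, beside 30.1% of all genes tested. The count is a description, because Lum, among the 5 lower genes, passed the filter only through its mouse values. The marker not called lower was Pdgfra, a growth factor receptor gene that also marks oligodendrocyte precursors. It had 3.07 and 3.23 FPKM in ferret and 1.64 and 1.23 FPKM in mouse libraries. Its log2 difference of 0.77 (limma adjusted p = 2.77e-05) was under the size for a call, but it was called higher with a pseudocount of 0.1 (1.09), at a library sum of 1000000 (1.36), at the mean sum (1.04) and after quantile normalization (1.17). Markers of endothelial cells and pericytes summed to 4.60 to 4.85 FPKM in ferret and to 48.1 to 49.4 FPKM in mouse libraries. All 3 of 3 tested were called lower, beside 30.1% of all genes tested. Cdh5 and Tek passed the filter only through their mouse values, so the count is a description. Of the 7 genes, 4 are listed at 0 in both ferret libraries. Most of the mouse sum came from Cdh5 and Pdgfrb, with means of 22.2 and 23.6 FPKM. Pecam1, Kdr, Cldn5 and Rgs5 had means under 1 FPKM in mouse libraries as well and were not tested. The part of these cell types in the results was not tested either.

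**Figure D2:**
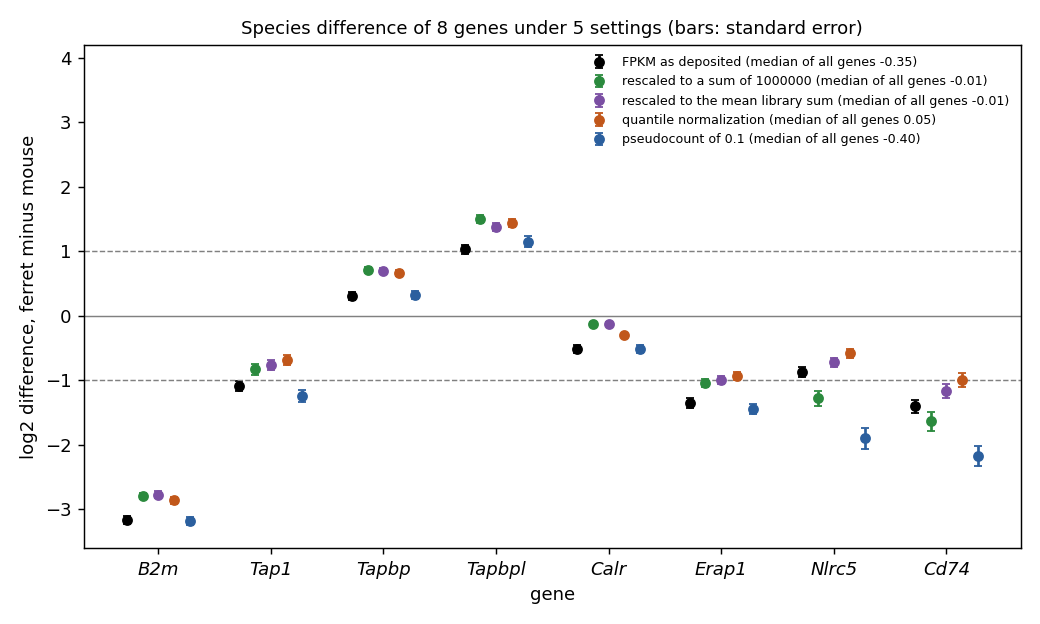
The y axis shows the log2 difference, ferret minus mouse, of the 8 genes tested, with FPKM as deposited in black and 4 other settings in colour; bars are standard errors and dashed lines mark the size of 1 required for a call. No gene changes side of 0, B2m stays below -2.7 in each setting, and Tap1, Erap1, Nlrc5 and Cd74 cross the line at -1.

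The order of the levels differed between the species. In both ferret libraries the order was Calr, Tapbp, B2m, Tapbpl, Erap1, Tap1, Cd74, Nlrc5 and Ciita. In both mouse libraries Calr and B2m came first, then Tapbp, Tap2 and Erap1, then Tap1, Tapbpl, Cd74, Nlrc5 and Ciita. Neighbours in these orders did not overlap between duplicates, except for mouse Tap2 and Erap1, whose values of 21.0 to 21.9 and 19.8 to 21.2 FPKM did. B2m thus stood below tapasin in ferret and far above it in mouse astrocytes.

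Ratios between genes of the same library do not depend on how a library is scaled. The ratio of B2m to Tapbp was 0.853 and 0.839 in ferret libraries, against 9.74 and 9.50 in mouse libraries. Calr exceeded B2m 9.65 and 9.73 times in ferret, but 1.48 and 1.58 times in mouse libraries. Relative to Tapbp and to Calr, B2m was therefore lower in ferret astrocytes under any scaling of a library.

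The subunit Tap1 was also lower relative to tapasin in ferret astrocytes, with ratios of 0.080 and 0.085 against 0.252 and 0.241 in the mouse libraries. The ratio of Erap1 to Tap1 differed little, at 1.73 and 1.64 in ferret and at 1.80 and 2.08 in mouse libraries. Those groups did not overlap, but the gap of the nearest libraries was smaller than the distance between the mouse duplicates. Tapbpl stood at 0.233 and 0.232 of Tapbp in ferret and at 0.124 and 0.137 of it in mouse libraries. Gene models of unequal length or completeness in the species would still enter these ratios.

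**Figure D3:**
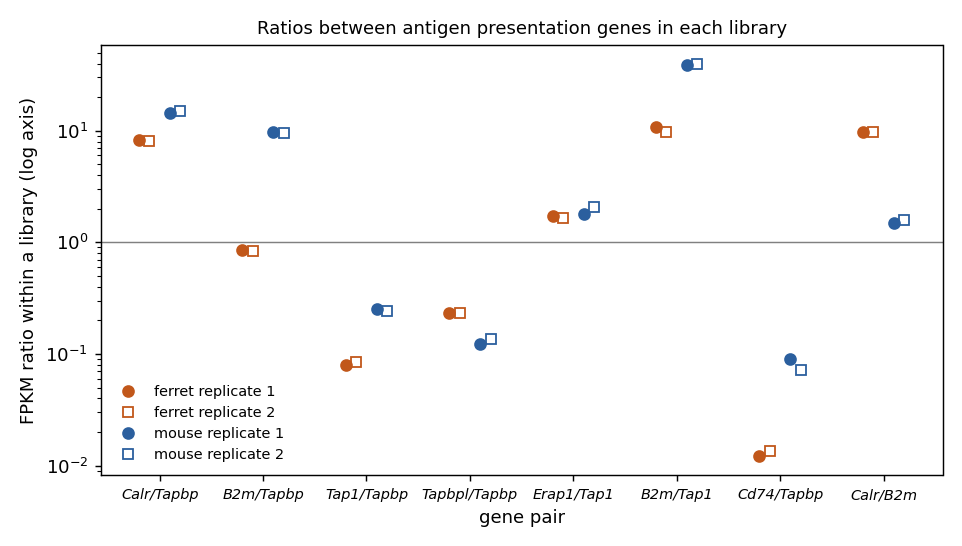
Ratio of the FPKM of paired genes within each library on a log axis, with ferret libraries in orange, mouse libraries in blue, replicate 1 as filled circles and replicate 2 as open squares. The ratio of B2m to Tapbp is below 1 in both ferret libraries and above 9 in both mouse libraries, whereas the ratio of Erap1 to Tap1 is close in the species.

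The other genes of the pathway were taken from 7 lists with 50 genes, of which 43 were tested. Of these, 19 were called lower and 3 higher in ferret astrocytes, or 44.2% and 7.0%, beside 30.1% and 13.1% of all genes tested. Their median log2 difference was -0.61. Of the 19 lower genes, 6 passed the filter only through their mouse values (Psmb8, Psmb9, Ctss, Cd80, Cd86 and Cd274), and 1 of the 3 higher genes only through its ferret values, so the counts are a description. The count of lower genes was 14 with libraries at a sum of 1000000, when 24.9% of all genes were lower. It was 12 with libraries at their mean sum (21.7% of all genes) and 11 after quantile normalization (20.4%).

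The immunoproteasome cuts proteins into peptides for class I, and PA28 proteins are activators of the proteasome. Of 6 listed subunits of either kind, 2 were called lower and 0 higher, beside 30.1% and 13.1% of all genes tested. The list median was -0.30. Called lower were Psmb8 and Psmb9, catalytic subunits that interferon-gamma induces and that neighbour Tap1 in the mouse genome. Psmb8 had 0.029 and 0.103 FPKM in ferret and 20.9 and 17.6 FPKM in mouse libraries, a log2 difference of -4.25 (limma adjusted p = 1.46e-10). Psmb9 had 0.491 and 0.504 FPKM in ferret and 5.53 and 4.58 FPKM in mouse libraries, a log2 difference of -2.01 (limma adjusted p = 1.58e-08). Both kept the call under each scaling. The remaining subunits lay near each other in the species. Psmb10, the other inducible catalytic subunit, had 20.3 and 20.5 FPKM in ferret and 28.8 and 29.0 FPKM in mouse libraries. The activator genes Psme1, Psme2 and Psme3 had log2 differences of 0.36, -0.12 and 0.41, of which that of Psme2 turned to 0.26 after either rescaling and to 0.18 after quantile normalization.

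Of 9 chaperones and peptidases, 3 were called lower and 1 higher, beside 30.1% and 13.1% of all genes tested. The median of -0.34 was close to that of all genes tested. Canx and Pdia3, partners of calreticulin in folding the heavy chain, were not called, at log2 differences of -0.06 and -0.34, which turned to 0.33 and 0.05 after either rescaling. The endoplasmic reticulum chaperones Hspa5 and Hsp90b1 were called lower, at -1.40 and -1.14, of which the first kept the call when libraries were brought to their mean sum. The aminopeptidase gene Lnpep, which trims peptides for cross-presentation, had 8.84 and 8.93 FPKM in ferret and 31.5 and 33.5 FPKM in mouse libraries, a log2 difference of -1.76 (limma adjusted p = 3.47e-09). The gene called higher was Thop1, a cytosolic peptidase that breaks down peptides, at a log2 difference of 1.18.

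Other class I-like heavy chains also pair with beta-2 microglobulin or share its fold, and 3 of the 5 listed were in both species. Hfe, an iron regulator that needs B2m, had 1.88 and 1.93 FPKM in ferret and 20.8 and 20.3 FPKM in mouse libraries, a log2 difference of -2.89 (limma adjusted p = 2.38e-10). Fcgrt, the heavy chain of the neonatal Fc receptor, which also needs B2m, was called lower at -1.27 with FPKM as deposited. It was not called under the other scalings. Azgp1, whose product has the class I fold, had 3.88 and 4.47 FPKM in ferret and is listed at 0 in both mouse libraries.

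Of the class II endosomal genes, 4 of 6 tested were called lower and 0 higher, beside 30.1% and 13.1% of all genes tested. The list median was -1.95. Ctss encodes cathepsin S, the protease that removes the invariant chain. It had 0.529 and 0.834 FPKM in ferret and 112 and 99.8 FPKM in mouse libraries, a log2 difference of -5.99 (limma adjusted p = 2.98e-11). Ctsh and Lgmn, other endosomal proteases, were called lower as well, at -3.55 and -2.00, as was the thiol reductase gene Ifi30 at -1.89. The broadly expressed Ctsb was not called at -0.74, and Cd63, a membrane protein of late endosomes, stood at 0.16 (limma adjusted p = 0.0537). Ctss is also a known microglial gene, and the part of microglia in its difference was not tested.

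The factors that bind class II promoters beside CIITA did not share a direction. Of 7 genes, 2 were called lower and 1 higher, which lies near the shares of 30.1% and 13.1% over all genes tested. The list median was -0.23, beside -0.35 for all genes tested. The lower genes were Nfyb and Nfyc, subunits of the CCAAT-binding factor, at -1.12 and -1.22. Rfxank, a subunit of the RFX complex, was called higher, at 1.10. Both lower calls were lost under each rescaling. Rfxank had 13.2 and 14.3 FPKM in ferret and 5.96 and 5.75 FPKM in mouse libraries. Its partner gene Rfxap stood at -0.23 and turned to between 0.13 and 0.18 under the other scalings.

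Among 9 tested regulators of the interferon and NF-kB pathways, 3 were called lower and 0 higher. That lies near the share over all genes tested, of which 30.1% were called lower and 13.1% higher. The list median was 0.04. Ifngr1, the ligand-binding chain of the interferon-gamma receptor, had 11.5 and 9.94 FPKM in ferret and 28.2 and 29.8 FPKM in mouse libraries, a log2 difference of -1.36 (limma adjusted p = 8.91e-08) that was -0.99 and not called with libraries at their mean sum. Nfkb1, a subunit of NF-kB, and the kinase gene Jak2 were called lower at -2.01 and -1.17. Jak2 lost the call under each scaling, at -0.89 with a sum of 1000000, -0.82 with the mean sum and -0.76 after quantile normalization, and the count of lower regulators fell to 2, 1 and 1. The other chain of the receptor, Ifngr2, and the kinase gene Jak1 had log2 differences of 0.17 and 0.12. The 3 costimulatory genes tested, Cd80, Cd86 and Cd274, were all called lower, beside 30.1% of all genes tested. Each passed the filter only through its mouse values, so the count is a description. Cd40 was under the filter in both species and was not tested. Cd80 is listed at 0 in both ferret libraries and had 29.3 and 28.1 FPKM in mouse libraries, while Cd86 was at most 0.046 FPKM in ferret and at 1.23 and 1.47 FPKM in mouse libraries. After quantile normalization 1 of the 3 was called. Cd274 was at -0.96 and not called when mouse replicate 1 was left out.

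**Figure D4:**
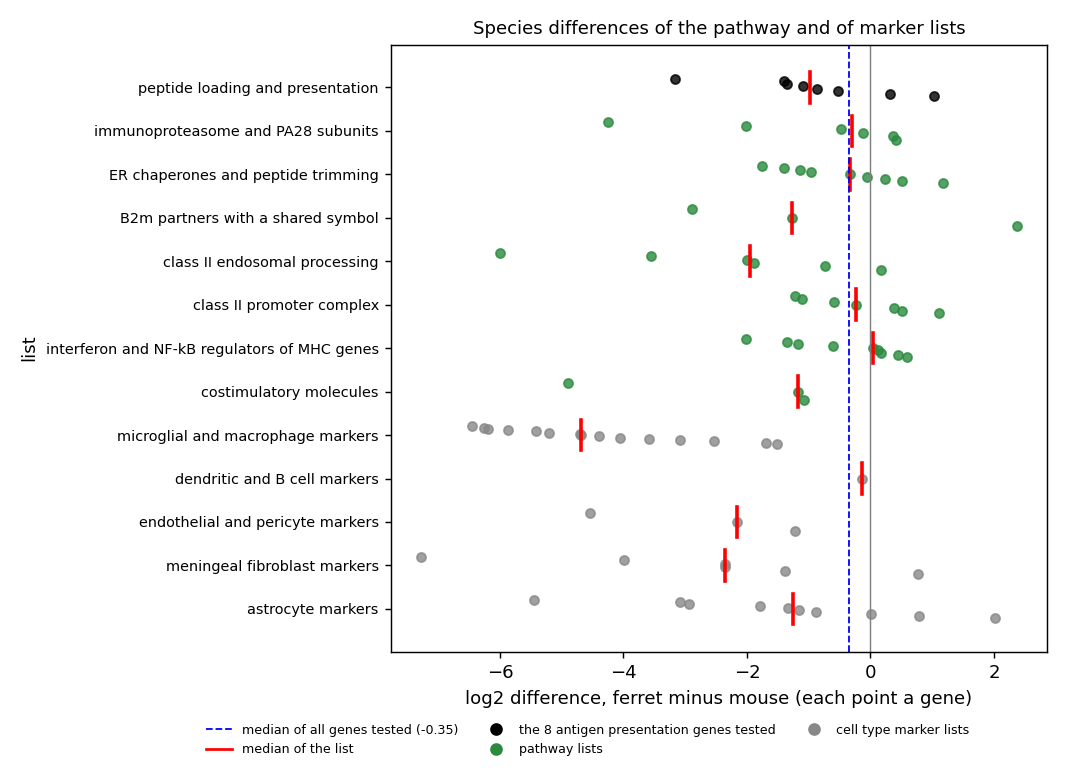
Each point is the log2 difference, ferret minus mouse, of a tested gene on the x axis, by list on the y axis; red lines are list medians and the dashed blue line is the median of all genes tested at -0.35. The peptide loading genes spread from -3.16 to 1.03, the interferon and NF-kB regulators lie on both sides of 0, and all tested microglial and macrophage markers lie below -1.

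The MHC molecules themselves carry other symbols in the species and were not compared. In mouse astrocytes 44 symbols of the H2 locus were listed, of which 19 had a mean of at least 1 FPKM. The classical class I heavy chains H2-K1 and H2-D1 led them, with 179 and 172 FPKM and with 86.0 and 78.0 FPKM in the 2 libraries, below the 426 and 402 FPKM of B2m. The class II chains were lower by far, with H2-Ab1 at 1.87 and 1.51 FPKM and H2-Aa at 1.01 and 0.823 FPKM, below the 3.91 and 3.06 FPKM of Cd74. H2-DMa, which helps to exchange the peptide of class II molecules, had 8.02 and 6.24 FPKM. In ferret astrocytes 3 class II symbols of the human form were used, and HLA-DMA had 1.45 and 1.32 FPKM, while HLA-DOA and HLA-DPA1 stayed under 0.04 FPKM in both libraries. Class I genes are near-identical copies of each other in the mouse, and reads could be split between them, so the single values are uncertain.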

How the data were processed

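Total RNA of cultured astrocytes was made into stranded, polyA-selected libraries, 2 per species. Per the study's methods, STAR 2.7.0f aligned ferret and mouse reads to their Ensembl genomes, and the authors deposited FPKM from Cufflinks 2.2.1, one value per gene and library. FPKM holds no read counts. Symbols were matched in upper case, and the row with the highest species mean was used where a symbol had several. The difference of log2(FPKM + 1) between species was fitted in R 4.3.3 by limma 3.58.1, using moderated variances with an intensity trend and Benjamini-Hochberg adjustment, for 10204 genes whose mean reached 1 FPKM in ferret or mouse. Ciita, under that limit, is given by its values. On simulated data for these 10204 genes, 100% of 200 genes changed by a log2 value of 1.5 and 0 unchanged genes were called. The simulated noise had the spread of the duplicates, which is small beside the limit of 1, so this outcome was nearly fixed beforehand. It checks that the fit runs and does not bear on the species calls.

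The 10 genes, the lists and the tests were chosen with earlier results of these data known. Of each list, the text names genes among the 4 with the highest mean FPKM and the 2 with the largest absolute log2 difference. Thop1, Ifi30, Jak2, Cx3cr1, Lum, Pdgfra, Cd40, Pecam1, Kdr, Cldn5, Rgs5 and the MHC symbols of each species were named after their values were seen. Mouse positions are from GENCODE M21 on GRCm38, the authors' build, in another annotation release. Alternatives were a pseudocount of 0.1, no filter, FPKM rescaled over the shared symbols to a sum of 1000000 or to the mean of the 4 library sums, quantile normalization, a block for the replicate number, summed rows, no trend, and each library left out. Promoter sequences were not analysed here. A gene of the regulator list is not reported here by name.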

Additional observations from a re-analysis of the deposited data

How the results depend on the processing

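With FPKM rescaled to a sum of 1000000, Tap1 moved to a log2 difference of -0.83 and was not called, while Nlrc5 moved to -1.28 and was called, and 2197 of all genes tested were called higher in ferret astrocytes. When library sums were set to their mean, Tap1 (-0.76) and Erap1 (-0.99) lost the call. That left 2 of the antigen presentation genes and 12 genes of the pathway lists called lower, when 21.7% of all genes were lower. After quantile normalization Tap1 (-0.68), Erap1 (-0.93) and Cd74 (-1.00) lost the call, leaving 1 and 11 called lower. Of all genes tested, 2082 (20.4%) were then lower and 2080 (20.4%) higher. With a pseudocount of 0.1 Nlrc5 was called, at -1.90. When each library was left out, Tapbpl ranged from 0.99 to 1.08 and the count of higher antigen presentation genes from 0 to 1. None of the 8 genes changed sign in any setting. Changes of sign were seen for uncalled genes: Canx (0.33 after either rescaling, 0.34 after quantile normalization), Pdia3 (0.05 after either rescaling), Psme2 (0.26 and 0.18), Rfxap (0.14, 0.13 and 0.18) and Zbtb46, a dendritic marker (0.08, 0.05 and 0.23), with Gfap between -0.04 and 0.07 when libraries were left out. The median of all genes tested moved up as well, from -0.35 to -0.01 after either rescaling and to 0.05 after quantile normalization. The cause of the unequal library sums was not tested. The replicate numbers come from the labels alone, and the deviations of same-numbered libraries correlated at 0.010. With the replicate number as a block, the 4 lower genes and Tapbpl kept their calls, with B2m at -3.16 and Tapbpl at 1.03, and 1342 genes were higher and 3072 lower. The deposited FPKM gives no depth, and read counts that the study lists were not used here, so values under 1 FPKM carry no counting interval.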
